A study of Mus musculus with 6 samples.

Results

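The genes that lie beside Nfe2l2 on mouse chromosome 2 were followed here in prefrontal cortex of Nrf2 knockout and wild type mice. Members were chosen by position, with earlier results of these data known. They were 102 probes with an mm9 coordinate between 73.0 and 81.0 Mb and 41 probes for the same transcripts. For Ttc30a2, 1 probe was kept by name. A further 226 circular RNA (circRNA) probes have names that place them in that interval. These 370 probes are part of 150305 on the array, and all probes of Nfe2l2 itself, 4 of them in the interval, were left out. They comprise 143 probes for coding transcripts, 1 for a non-coding transcript (Hoxd3os1) and 226 for circRNAs, and the linear probes belong to 51 genes. Tests covered the 288 of these 370 that stood well above background on all 3 arrays of at least 1 genotype.

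The groups were 3 Nrf2 knockout and 3 wild type samples of prefrontal cortex, all from male ICR mice aged 3 to 4 months. ICR is an outbred stock. The labels name neither the deleted part of Nfe2l2, nor the origin of the knockout line. They also leave unsaid if each array stands for an animal of its own, and p-values cover only the spread among these 6 samples, part of which may be technical. Each sample was hybridised to 1 Agilent array with the dye Cy3. The 3 wild type arrays and knockout 1 lay on slide 1, and knockouts 2 and 3 on slide 2.

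Nfe2l2 encodes Nrf2, a transcription factor that binds antioxidant response elements and switches on detoxification and glutathione genes in stressed cells. Its neighbours have unrelated jobs: the Hoxd cluster patterns limbs and the trunk in the embryo, Ttn encodes the giant spring protein of muscle, and others serve RNA binding, cilia, peroxisomes or cyclic nucleotide signalling. In mouse genetics, genes close to a targeted locus are inherited together with it more often than distant ones. CircRNAs are closed loops made when a splice donor joins an acceptor upstream of it, and most of them consist of exons of coding genes.

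The sequences of the probes that carry the main contrasts are shown first, 5′ to 3′ as on the array. Rbm45 has 2 probes that differed in direction, and the longest run of bases they have in common is 6. Probe A lies at chr2:76218588-76221536 on the plus strand of mm9, and probe B targets the same transcript with no coordinate in the files. Ttc30a2 has a single probe, which differs from those of its relatives.
Rbm45 probe A: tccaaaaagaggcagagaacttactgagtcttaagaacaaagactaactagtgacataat
Rbm45 probe B: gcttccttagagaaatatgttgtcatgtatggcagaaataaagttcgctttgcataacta
Ttc30a2 probe: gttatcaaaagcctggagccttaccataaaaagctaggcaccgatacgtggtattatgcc

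CircRNA probes of one gene often overlap, because circles that share a splice site can share much of the probe. The length of the shared run varies, and in Ttn circles named from base 76857904 it is 16 of 60 bases. The 5 tested Ccdc141 circles that end at the same base have 43 of 60 bases in common, and 5 Agps circles that start at the same base have 51. They are shown because the results for these genes rest on such families. Lower case marks the shared run and capitals the bases outside it, and the positions in their names are read as GRCm38.
Ccdc141 circle chr2:77074836-77173607, minus strand: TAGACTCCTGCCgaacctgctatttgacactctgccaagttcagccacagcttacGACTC
Ccdc141 circle chr2:77089070-77173607, minus strand: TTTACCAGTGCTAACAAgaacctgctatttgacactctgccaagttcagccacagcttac
Ccdc141 circle chr2:77108363-77173607, minus strand: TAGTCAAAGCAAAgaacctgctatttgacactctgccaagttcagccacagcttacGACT
Ccdc141 circle chr2:77124122-77173607, minus strand: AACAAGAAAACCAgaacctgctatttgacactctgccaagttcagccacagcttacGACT
Ccdc141 circle chr2:77168511-77173607, minus strand: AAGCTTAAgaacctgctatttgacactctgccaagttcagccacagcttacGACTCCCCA
Agps circle chr2:75851494-75854605, plus strand: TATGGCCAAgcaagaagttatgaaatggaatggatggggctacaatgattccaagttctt
Agps circle chr2:75851494-75857088, plus strand: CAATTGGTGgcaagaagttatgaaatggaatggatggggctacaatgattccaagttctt
Agps circle chr2:75851494-75858978, plus strand: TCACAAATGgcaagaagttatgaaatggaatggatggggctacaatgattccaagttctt
Agps circle chr2:75851494-75866872, plus strand: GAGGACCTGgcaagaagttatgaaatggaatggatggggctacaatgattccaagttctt
Agps circle chr2:75851494-75868413, plus strand: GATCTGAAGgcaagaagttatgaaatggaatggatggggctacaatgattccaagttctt

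Levels below are log2 processed signals after subtraction of each array's own 75th percentile, so that 0 is a bright but ordinary probe and each step of 1 is a doubling. Levels of different probes are not comparable with each other. The labels held at the targeted gene: the 3 coding probes of Nfe2l2 measured −7.39 to −3.46 on the knockout arrays, against 0.35 to 1.26 on the wild type arrays. At −3.79 to −3.46, 1 of them was still well above background on all 3 knockout arrays. The Nfe2l2 circRNA probe measured −7.33 to −6.73 against −1.83 to −1.68. A non-coding Nfe2l2 probe overlapped, at −1.97, −2.15 and −2.07 in the knockout and −2.10, −1.37 and −1.69 in wild type. All 5 cortical neuron markers checked (Snap25, Slc17a7, Tbr1, Neurod6 and Camk2a) were well above background on every array, with a summed linear signal of 852 to 888 times the 75th percentile in the knockout and 843 to 880 in wild type. Of 10 marker lists, each with every gene above background on every array, 2 had sums that did not overlap between the genotypes. The 3 red cell genes summed to 462 to 497 in the knockout against 352 to 454 in wild type, and the 4 choroid plexus genes to 1.82 to 2.09 in the knockout against 2.28 to 2.85 in wild type, and their part in the results below was not tested. In tissue RNA, fewer cells of a type and less RNA per cell cannot be told apart. Each array had 71.0% to 73.4% of all probes well above background, and the median local background was 24, 19 and 18 on the knockout arrays against 23, 24 and 24 on the wild type arrays.

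Across the flank, only Rbm45 passed the threshold, at 1 probe. The other probes did not, with log2 differences of −1.48 to 0.86 apart from Cyct probe B, which was not above background in the knockout. With limma and Benjamini-Hochberg adjustment over all 105922 tested probes, 1 of the 288 flank probes had an adjusted p under 0.05, where the array as a whole had 10 (0.00944%). At an unadjusted p under 0.05 there were 68 flank probes (23.6%; 45 higher and 23 lower in the knockout), against 15.1% of all tested probes. Over the whole array, 6474 tested probes were higher and 9470 lower at that p. The knockout and wild type values did not overlap at 90 flank probes (31.2%), 55 higher and 35 lower in the knockout, against 21.6% of all tested probes. The median size of the log2 difference, without its sign, was 0.17 in the flank and 0.16 over the array, and the medians with sign were 0.05 and 0.03. Without knockout 1 the adjusted count was 44 (15.3%, against 12.8% of all tested probes) and without wild type 1 it was 2. The unadjusted count was 39, 37, 39 and 38 without knockout 2, knockout 3, wild type 2 and wild type 3, or 12.8% to 13.5% of the flank against 7.30% to 9.14% of all tested probes. Without knockout 1 it was 91, and its 31.6% of the flank was no higher than the 31.7% of all tested probes. The non-overlapping count was 158 without knockout 1 (54.9%, against 51.9% of all tested probes) and 136 without wild type 1 (47.2%, against 34.2%). With array medians in place of 75th percentiles as the scale, 73 flank probes (25.3%) did not overlap, against 20.9% of all tested probes. Their split was 53 higher to 20 lower, and the median over the array was 0.08.

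Much of that share came from few genes. Agps, Ccdc141 and Ttn, chosen after their values were seen, have many circRNA probes with shared bases, and without these 3 genes 29 of 206 flank probes (14.1%) had an unadjusted p under 0.05 and 49 (23.8%) did not overlap. The lean of the coding probes depended on the measure. Of 107 coding probes, 14 (13.1%) were higher without overlap in the knockout, against 9.44% of all coding probes on the array, and 20 (18.7%) were lower, against 9.69%. At an unadjusted p under 0.05 all coding probes of the array stood at 1609 higher and 2719 lower (11.1%). The coding probes of the flank stood at 12 higher and 8 lower (18.7%). Their non-overlapping split turned with the processing too, to 12 higher and 7 lower with array medians and 19 higher and 17 lower after normexp background correction. No share over all coding probes is given for those settings. Of 181 circRNA probes, 41 (22.7%) were higher without overlap, against 16.5% of all circRNA probes, and 15 (8.29%) were lower, against 6.82%. At an unadjusted p under 0.05 they stood at 33 higher and 15 lower (26.5%), against 3004 higher and 2126 lower of all circRNA probes (14.8%).

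Fewer probes separated the genotypes when the slide was taken into account. With slide as a block, the comparison rests on knockout 1 against the 3 wild type arrays of its own slide, and 29 flank probes (10.1%) had an unadjusted p under 0.05, against 5.69% of all tested probes. Of the 68 probes counted without the block, 24 were among these 29, and all 68 kept their sign. Knockout 1 and the wild type arrays enter both differences, so the kept signs are no separate test of the slide. Over all 288, the sign turned at 69.

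**Figure D1:**
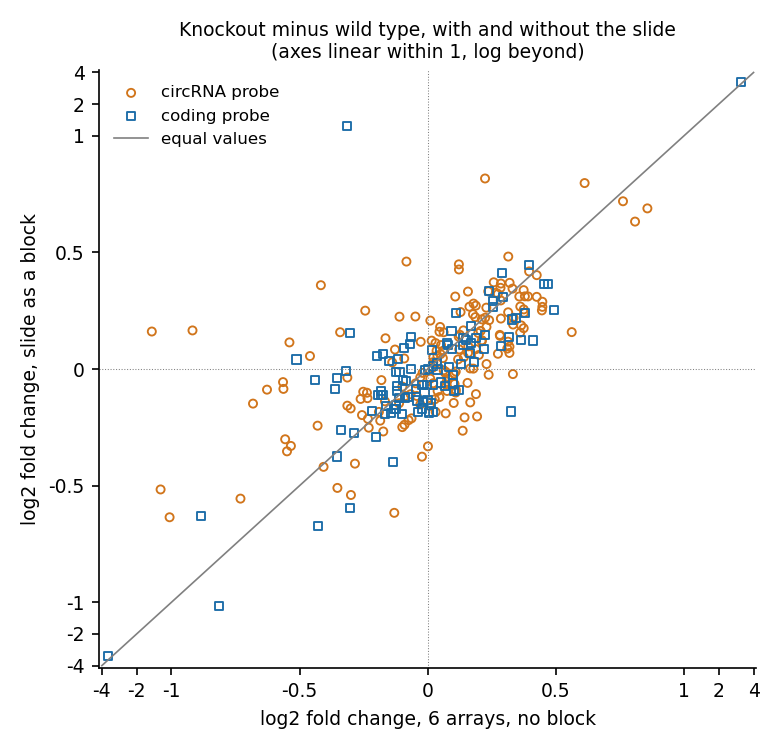
Log2 fold change (Nrf2 knockout minus wild type) of the 288 tested flank probes without a block (x) and with slide as a block (y), coding probes as squares and circRNA probes as circles; axes are linear within 1 and logarithmic beyond. Rbm45 probe A and Cyct probe B sit at the upper and lower ends of the line of equal values, and 69 probes have opposite signs.

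The position along the chromosome was described in bins of distance from Nfe2l2, with no test, since probes of a gene are not independent. On the side of higher coordinates, within 1 Mb, 24 of 53 tested probes (45.3%) did not overlap between the genotypes, 20 higher and 4 lower in the knockout, with a median log2 difference of 0.13. Between 1 and 3 Mb on that side, the count was 32 of 88 (36.4%), 18 higher and 14 lower, and beyond 3 Mb it was 13 of 62 (21.0%), 4 higher and 9 lower. On the side of lower coordinates, 3 of 14 probes (21.4%) did not overlap within 1 Mb and 18 of 71 (25.4%) between 1 and 3 Mb, 12 of them higher. With coding and circRNA probes pooled, the last bin on the one side and the first on the other thus lie at the 21.6% of the whole array. The higher pooled shares stand in the 2 bins that hold Agps, Rbm45, Ccdc141 and Ttn. By class the match did not hold. Beyond 3 Mb, 9 of 30 coding probes did not overlap (19.1% of all coding probes), 8 of them lower (9.69%). Of the circRNA probes there, 4 of 32 did not overlap (23.3% of all circRNA probes). Within 1 Mb on the lower-coordinate side, 3 of 9 coding and 0 of 5 circRNA probes did not overlap. The 53 probes of the nearest higher-coordinate bin come from 11 genes, and 17 of them from Agps alone.

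**Figure D2:**
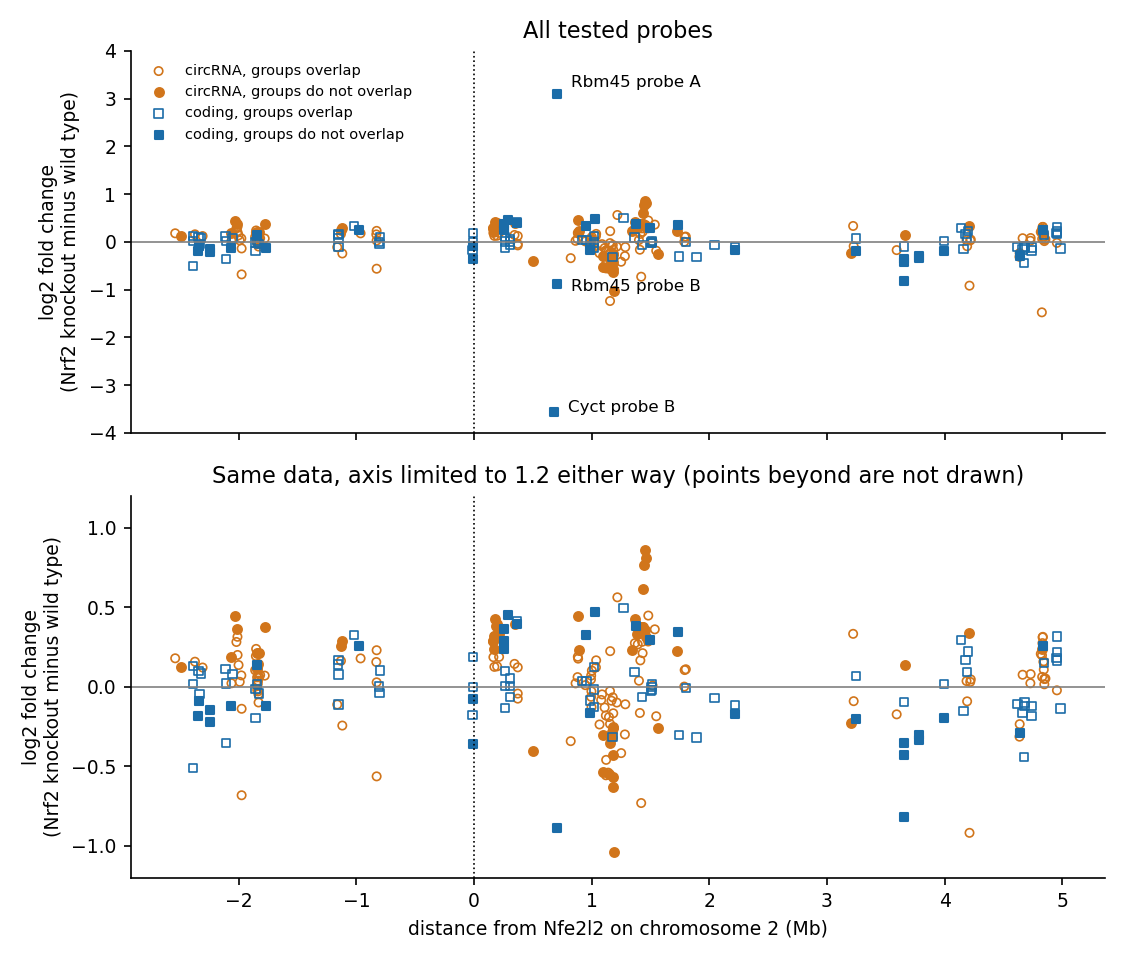
Log2 fold change (Nrf2 knockout minus wild type) of each tested probe against its distance from Nfe2l2 in Mb, coding probes as squares and circRNA probes as circles, filled where the 3 knockout and 3 wild type values do not overlap. Rbm45 probe A at 3.09 and Cyct probe B at −3.56 stand alone, both near 0.7 Mb, the second not above background in the knockout, while nearly all other points lie within 1 of zero.

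Rbm45, an RNA-binding protein with several RNA recognition motifs that is found in the inclusions of some motor neuron diseases, lies 0.706 Mb from Nfe2l2. Probe A measured 0.09, −0.17 and −0.18 on the knockout arrays, against −3.29, −3.20 and −3.04 on the wild type arrays. All 3 knockout values lay far above all 3 wild type values, and knockout 1 on slide 1 did so too. The log2 difference was 3.09 (SE 0.119, an 8.52-fold rise, limma adjusted p = 0.00218), and with slide as a block it was 3.27 (limma adjusted p = 0.0152). Within slide 1 alone it was 3.27 with a limma adjusted p of 0.149, which misses the threshold. After normexp background correction the difference was 1.87 and still passed.

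Rbm45 probe B, for the same gene, ran the other way. It measured 0.25, −0.05 and −0.21 in the knockout, against 0.92, 0.83 and 0.90 in wild type, again with no overlap. The log2 difference was −0.89 (SE 0.133), and the limma adjusted p of 0.275 did not pass. Rbm45 was the only gene of the flank with a linear probe that was higher and another that was lower without overlap, and the printed probes show that they read different stretches of the transcript.

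Cyct, the testis form of cytochrome c, lies 0.678 Mb from Nfe2l2, close to Rbm45, and was lower in the knockout. Its probe B measured −6.20, −6.81 and −6.51 in the knockout, where it was not well above background on any array, against −4.35, −2.72 and −1.76 in wild type, where it was on all 3. Against the wild type mean, probe B lay at least 4.51-fold lower in knockout samples, on the bound set by the dimmest probes above background (limma adjusted p = 0.307). After normexp background correction its log2 difference was −0.66. Probe A, at chr2:76192113-76192172 on the minus strand of mm9, was not tested. It read −5.93, −6.19 and −5.71 in the knockout and −5.31, −2.59 and −1.83 in wild type, and was above background on 2 wild type arrays only. Both probes were dimmest in wild type 1 among the wild type arrays, and the wild type spread of probe B (SD 1.31, n = 3) was far wider than that of Rbm45 probe A (SD 0.128). Probe B was tested through wild type alone, so no call is drawn from its p-values, under any choice of arrays.

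**Figure D3:**
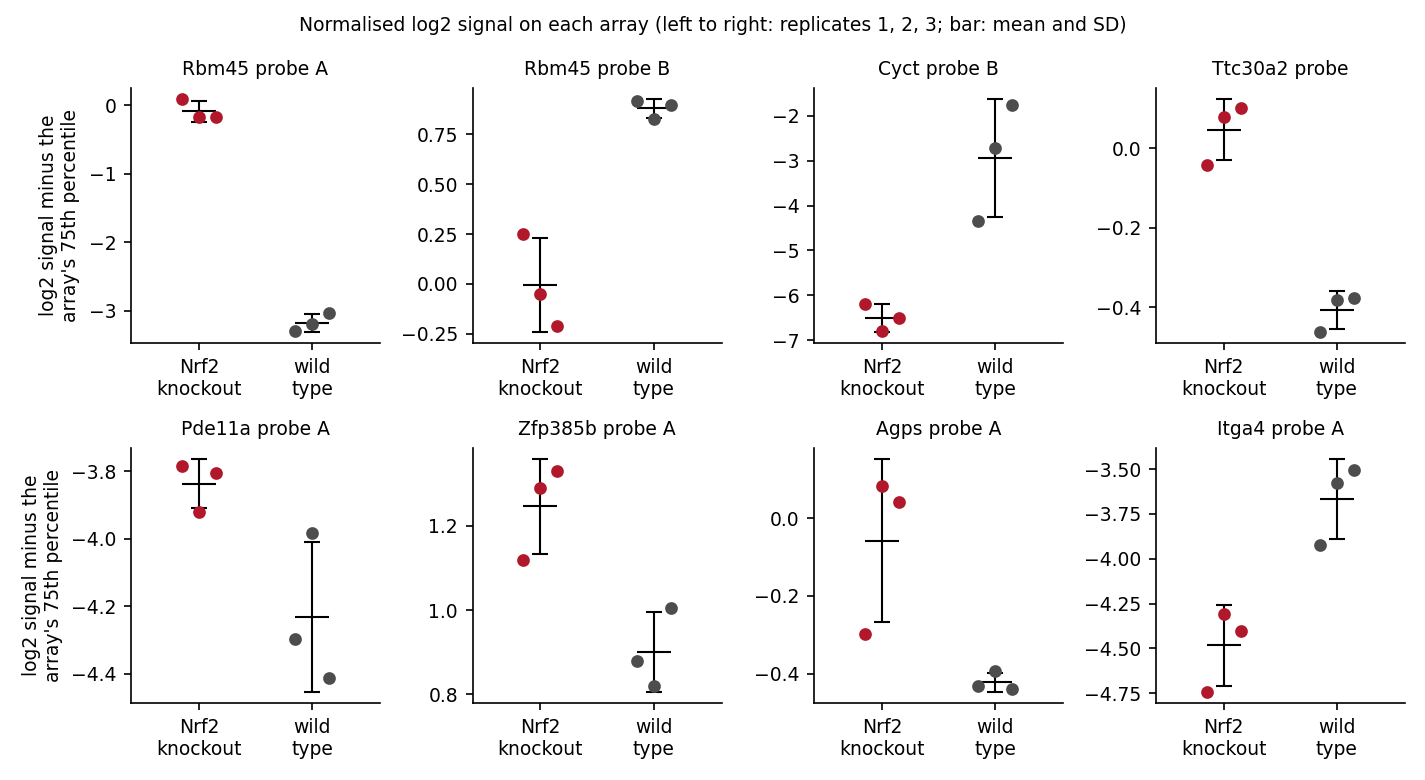
Normalised log2 signal of 8 flank probes on each array, Nrf2 knockout at the left and wild type at the right of each panel, points for replicates 1, 2 and 3 from left to right and bars for the mean and SD (n = 3 each); each panel has its own scale. In every panel the 3 knockout points lie all above or all below the 3 wild type points, by about 3 units for Rbm45 probe A.

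The 3 Ttc30 genes encode the IFT70 proteins of intraflagellar transport, which carries cargo along cilia, and lie side by side 0.260 to 0.303 Mb from Nfe2l2. Ttc30a2 measured −0.04, 0.08 and 0.10 in the knockout, against −0.46, −0.38 and −0.38 in wild type. The groups did not overlap and each was tight, and the log2 difference of 0.45 (SE 0.088) had an unadjusted p of 0.00163 and a limma adjusted p of 0.307. With slide as a block it was 0.37. Its relatives showed nothing of that size: 3 probes of Ttc30a1 gave −0.07 to 0.05 and 3 of Ttc30b −0.13 to 0.10, all with overlapping groups. The Ttc30a2 probe shares no run longer than 7 bases with any of these 6 probes, and at best 23 of 60 bases match.

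Among the cyclic nucleotide and phosphatase genes, Pde11a is named in the definition of the region and was kept. It encodes a phosphodiesterase that breaks down both cAMP and cGMP, and in the mouse brain it is known best from the hippocampus. Probe A measured −3.79, −3.92 and −3.81 in the knockout, against −4.30, −3.98 and −4.41 in wild type, without overlap but close at −3.92 and −3.98 (log2 difference 0.39, SE 0.131, limma adjusted p = 0.31). Probe C gave 0.41 (SE 0.271) with overlapping groups, and probe B was above background on 1 knockout array only and was not tested. With slide as a block, probe A was at 0.45 and probe C at 0.12. All Pde11a signals were dim. Its 6 tested circRNAs split evenly in sign, from −0.41 to 0.40, and 1 was higher and 1 lower without overlap (16.5% and 6.82% of all circRNA probes). Of the other members of this list, Pde1a, a calmodulin-dependent phosphodiesterase, had 4 probes from −0.15 to 0.22, Dusp19, a dual-specificity phosphatase, 4 probes from 0.16 to 0.32, and Ppp1r1c, an inhibitor of protein phosphatase 1, a single tested probe at 0.29. All of these overlapped, and of the 11 tested probes of the list 1 was higher without overlap, 2 had an unadjusted p under 0.05 and 0 passed the limma adjusted threshold. Over all coding probes of the array, 9.44% were higher and 9.69% lower without overlap and 11.1% had an unadjusted p under 0.05, so the list's counts lie near the background.

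Zfp385b, a zinc finger protein gene 1.74 to 2.04 Mb away, was likewise kept, and its 5 probes disagreed. Probe A, at chr2:77249677-77249736 on the minus strand of mm9, measured 1.12, 1.29 and 1.33 in the knockout, against 0.88, 0.82 and 1.00 in wild type, without overlap. Its log2 difference was 0.34 (SE 0.102, limma adjusted p = 0.307). Probes B, C, D and E gave −0.30, −0.01, −0.07 and −0.32, all with overlapping groups. With slide as a block, probe B was at 0.15 and E at −0.01, while A was at 0.22. The 4 circRNAs of the gene measured 0.001 to 0.22, and 1 did not overlap, near the 23.3% of all circRNA probes. Beside Zfp385b, the general transcription regulators hold Atf2, a stress-activated factor of the CREB family with 5 tested linear probes from −0.20 to 0.14, and Cir1, a corepressor, with 3 from −0.51 to 0.13. Of 13 tested probes in this list, 2 were higher (9.44% of all coding probes) and 0 lower without overlap (9.69%), 1 had an unadjusted p under 0.05 (11.1%) and 0 passed the limma adjusted threshold.

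Agps, the peroxisomal enzyme that makes the ether bond of plasmalogen lipids, is the first tested gene on the higher-coordinate side, 0.251 Mb away. It was the only gene with several tested linear probes of which every probe was higher in the knockout without overlap. Probe A measured −0.30, 0.08 and 0.04 in the knockout against −0.43, −0.39 and −0.44 in wild type. Probe B measured 2.34, 2.66 and 2.59 against 2.31, 2.24 and 2.19, and probe C 1.77, 1.68 and 1.56 against 1.50, 1.37 and 1.42. The log2 differences were 0.36, 0.29 and 0.24, with limma adjusted p-values of 0.311 to 0.327, so that none passed. At probes A and B, knockout 1 lay just above wild type and the slide 2 arrays well above it, and with slide as a block the differences were 0.12, 0.10 and 0.34.

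All 14 circRNAs of Agps were also above 0, from 0.12 to 0.43, and 10 did not overlap, against 23.3% of all circRNA probes. Here the slide made little difference to the middle value: the median log2 difference was 0.30, and with slide as a block 0.30 with all 14 above 0. Over the 14 circles the median signal relative to the wild type mean was 0.30, 0.27 and 0.33 on the knockout arrays, against 0.07, −0.02 and −0.05 on the wild type arrays. The largest, chr2:75861934-75877598 on the plus strand of GRCm38, measured −0.62, −0.45 and −0.44 in the knockout and −0.86, −0.95 and −0.98 in wild type (0.43, SE 0.094, limma adjusted p = 0.307). The 5 circles printed above, with their shared run, gave 0.19 to 0.32, and 8 of the 14 probes share at least 30 bases with another of the gene, so these are not 14 separate measurements. Of the other mitochondrial and peroxisomal genes, Mtx2, a protein of the mitochondrial outer membrane, gave −0.04 to 0.10 at 3 probes, and Atp5g3, the c subunit of ATP synthase, −0.12 at its probe, where the groups did not overlap (7.21, 7.26 and 7.24 in the knockout, 7.35, 7.33 and 7.40 in wild type). A circle of Atp5g3, chr2:73908739-73909183, lay the other way without overlap, at −0.99, −0.78 and −0.79 in the knockout and −1.26, −1.24 and −1.19 in wild type (0.38, SE 0.095, unadjusted p = 0.00643, limma adjusted p = 0.307), and at 0.24 with slide as a block.

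Ccdc141, a centrosomal coiled-coil protein needed for the migration of newborn neurons, lies 1.36 Mb away or more and had the highest circRNA differences of the flank. Of its 23 tested circles, 21 were above 0, 13 were higher in the knockout without overlap (against 16.5% of all circRNA probes) and 0 were lower (against 6.82%). Of the 2 below 0, the lowest stood at −0.73, with overlapping groups. The top circle, chr2:77108363-77173607, measured −3.05, −2.92 and −2.68 in the knockout, against −3.97, −3.64 and −3.61 in wild type. Its log2 difference of 0.86 (SE 0.146) had an unadjusted p of 8.26e-04 and a limma adjusted p of 0.307, with slide as a block it was 0.69, and after normexp background correction 0.27. The circle chr2:77124122-77173607 gave 0.81 and chr2:77089070-77173607 gave 0.76, and these belong with the first to the printed family. The other 2 of that family gave 0.45 and 0.37, and the first of these, chr2:77168511-77173607, had overlapping groups, with a wild type value of −1.92 above all knockout values. Outside that family, the circle chr2:77089070-77170607 gave 0.61 without overlap, and 0.12 after normexp background correction. It was not well above background on every array.

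The 23 circles of Ccdc141 had a median of 0.33, or 0.29 with slide as a block and 22 above 0, and 17 of all 24 circRNA probes of the gene share 30 bases or more with another. The linear probes ran lower than that: probe B gave 0.38 and probe C 0.29 without overlap, and probes A and D gave 0.09 and −0.07 with overlap. Probe B measured −2.01, −1.90 and −1.71 in the knockout and −2.37, −2.23 and −2.16 in wild type.

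Ttn, the titin gene beside Ccdc141, has the most circRNA probes of the flank, 72, of which 35 were tested, and the signs were turned round. Of the 35, 31 were below 0, 12 were lower in the knockout without overlap (against 6.82% of all circRNA probes) and 0 were higher (against 16.5%). The circle chr2:76857904-76894423 on the minus strand of GRCm38 measured −4.17, −4.91 and −4.62 in the knockout, against −3.42, −3.20 and −3.97 in wild type (−1.04, SE 0.259, limma adjusted p = 0.307). The circle chr2:76857904-76887006 measured −1.93, −2.67 and −2.81 against −1.73, −1.91 and −1.90, a log2 difference of −0.63. In that circle knockout 1 lay beside wild type, and the difference was −0.09 with slide as a block, whereas the first was at −0.64 with the block and −0.27 after normexp background correction. Over the 35 circles the median signal relative to the wild type mean was −0.14, −0.29 and −0.41 on the knockout arrays and 0.08, −0.02 and −0.05 on the wild type arrays. The linear probes did not follow: of 8, 3 were tested, and they gave 0.47 without overlap and 0.49 and −0.31 with overlap, all at dim signals.

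**Figure D4:**
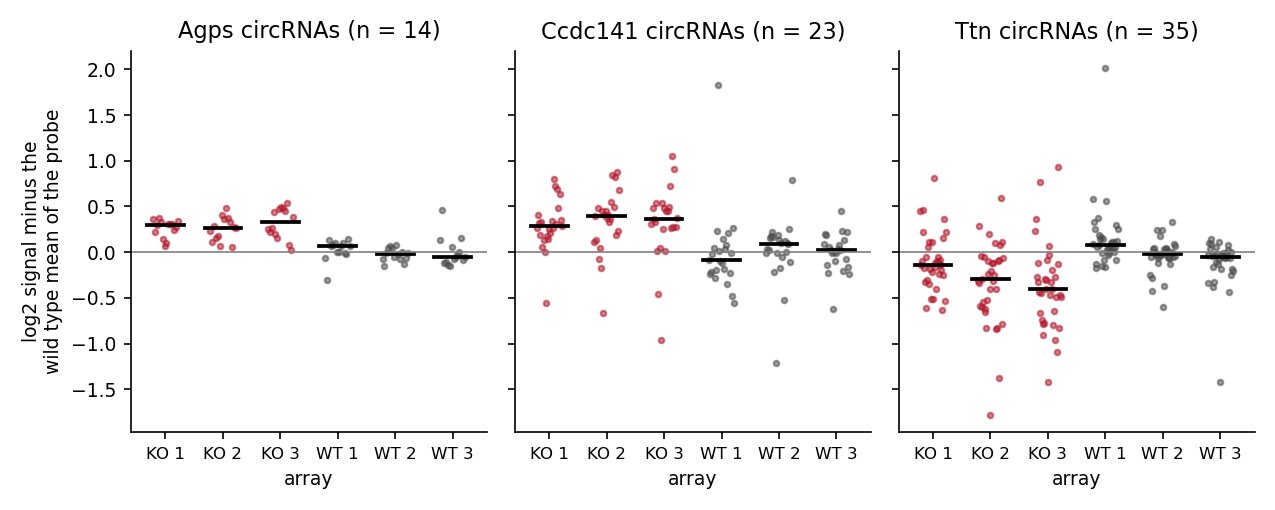
Log2 signal of each tested circRNA minus its wild type mean, by array (KO 1 to 3, Nrf2 knockout; WT 1 to 3, wild type), for Agps, Ccdc141 and Ttn; each point is a circRNA probe and each bar the median of the array. The knockout medians lie at 0.27 to 0.33 for Agps and 0.29 to 0.39 for Ccdc141, and at −0.41 to −0.14 for Ttn.

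Among the other genes with many circles, Atf2 had 21 tested circles with a median of 0.07 (−0.02 with slide as a block), Nckap1, a subunit of the WAVE complex that drives actin branching, 15 with 0.16, and Chn1, a Rac GTPase activating protein of axons and dendrites, 12 with 0.16 (0.05 with the block). Of the 15 Nckap1 circles, 1 was higher without overlap, against 16.5% of all circRNA probes. Relative to the wild type mean, their median was 0.15, 0.01 and 0.14 on the knockout arrays. On the wild type arrays it was 0.18, −0.04 and −0.09, so wild type 1 lay highest. Of the circles of Atf2, Nckap1 and Chn1, the largest without overlap was chr2:73631746-73679903 of Chn1, at 0.09, 0.32 and 0.45 in the knockout and −0.27, −0.08 and −0.12 in wild type (0.45, limma unadjusted p = 0.00913). Some circles differed by more but only on slide 2. The Nckap1 circle chr2:80512677-80520590 measured −1.47, −3.80 and −4.05 in the knockout against −1.43, −1.65 and −1.81 in wild type, and the Pde1a circle chr2:79897065-79906172 measured −2.16, −3.96 and −3.60 against −2.63, −2.25 and −2.09. In both, the 2 knockout arrays of slide 2 lay far below and knockout 1 lay among the wild type arrays, so the groups overlapped.

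**Figure D5:**
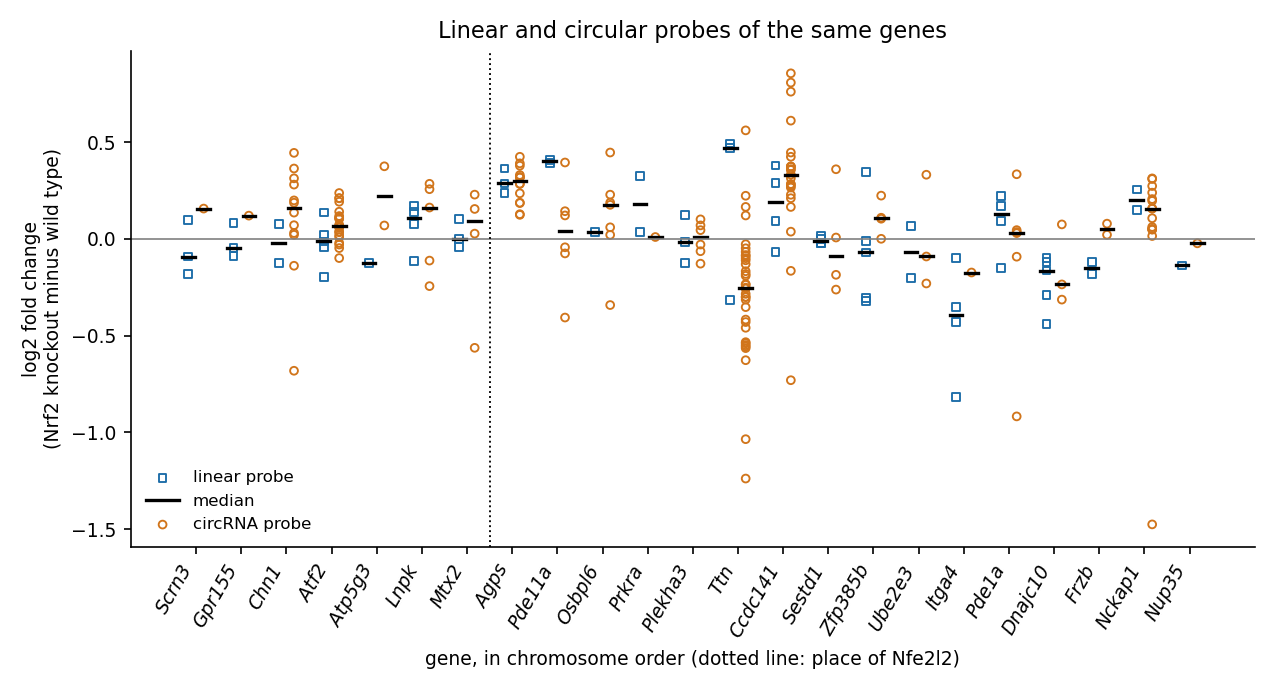
Log2 fold change (Nrf2 knockout minus wild type) of each tested linear probe (squares) and circRNA probe (circles) for genes with both, in chromosome order, with the median of each kind as a bar and the place of Nfe2l2 as a dotted line. Circles of Agps and Ccdc141 lie mostly above 0 and those of Ttn mostly below.

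On the side of lower coordinates, Hnrnpa3, a nuclear ribonucleoprotein that packages RNA and the closest gene of all at 0.0067 Mb, gave −0.36 at probe E, where the knockout measured 2.87, 2.41 and 2.50 and wild type 3.03, 2.88 and 2.95 (SE 0.139, limma adjusted p = 0.321). Its other 4 probes lay between −0.18 and 0.19, and with slide as a block probe E was at −0.08. The next genes on that side were Mtx2, given above, and Hoxd9, Evx2 and Lnpk, the last of which encodes a protein of endoplasmic reticulum junctions and gave −0.11 to 0.17 at 4 linear probes. Its 5 circles ran from −0.24 to 0.29, and 2 were higher without overlap (16.5% of all circRNA probes) and 0 lower (6.82%).

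The Hoxd cluster was mostly dark on these arrays: 17 of the 21 coding probes of its 9 genes never stood well above background. Hoxd9 had a single tested probe, probe A, at −2.95, −2.85 and −3.08 in the knockout and −3.24, −3.19 and −3.23 in wild type (0.25, SE 0.095, limma adjusted p = 0.319), while its probes B and C lay below background everywhere. The homeobox gene Evx2 gave 0.33 at a probe with overlapping groups, and −0.18 with slide as a block. Neurod1, a bHLH factor of neuronal differentiation 3.78 Mb away, was lower without overlap at both its probes, at −1.10, −1.36 and −1.06 in the knockout against −0.81, −0.94 and −0.76 in wild type for probe A. Probe B measured 1.91, 2.36 and 2.33 against 2.53, 2.37 and 2.62. The log2 differences were −0.34 and −0.30 (limma adjusted p = 0.311 and 0.365), and −0.26 and −0.60 with slide as a block. Of the 4 tested probes of this list, 1 was higher (9.44% of all coding probes) and 2 lower without overlap (9.69%), 2 had an unadjusted p under 0.05 (11.1%) and 0 passed the limma adjusted threshold.

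Itga4, the alpha 4 integrin by which leukocytes hold on to vessel walls, was lower at 3 of its 4 probes without overlap. Its probe A, at chr2:79166873-79166932 on the plus strand of mm9, measured −4.74, −4.31 and −4.40 in the knockout, against −3.92, −3.58 and −3.50 in wild type (−0.82, SE 0.164, unadjusted p = 0.00203, limma adjusted p = 0.307). With normexp background correction it was at −0.16. Probes B and D lay at −0.35 and −0.43, and probe C gave −0.10 with overlap. Knockout 1 was the lowest array at probes A and D, and with slide as a block A and D stood at −1.07 and −0.67. The 4 microglia markers, which stand for the brain's own immune cells, summed to 43.4 to 49.0 in the knockout and 46.4 to 51.0 in wild type, and their part in the Itga4 values was not tested. The other receptor and transport genes, the muscle acetylcholine receptor subunit Chrna1 and the membrane protein Gpr155, had 6 probes from −0.35 to 0.11. Of 10 tested probes in this list 4 were lower (9.69% of all coding probes) and 0 higher without overlap (9.44%), 3 had an unadjusted p under 0.05 (11.1%) and 0 passed the limma adjusted threshold.

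The remaining lists held small differences. Among RNA-binding genes, Prkra, a partner of Dicer that activates the kinase PKR, gave 0.33 and 0.04, and Cwc22, a spliceosome factor, −0.12 and −0.17. With Rbm45 and Hnrnpa3, 2 of the 11 tested probes were higher (9.44% of all coding probes) and 4 lower without overlap (9.69%). Of the 11, 3 had an unadjusted p under 0.05 (11.1% of all coding probes) and 1 was past the adjusted threshold. Among cytoskeletal genes, Wipf1, a partner of WASP in actin assembly, was lower without overlap at both its probes, at −0.14 and −0.22, Nckap1 gave 0.26 and 0.15 and Chn1 −0.12 and 0.08. With Ttn and Ccdc141, 4 of the 13 tested probes of that list were higher (9.44% of all coding probes) and 3 lower without overlap (9.69%). Among folding and ubiquitin genes, all 5 probes of Dnajc10, a disulfide reductase of the endoplasmic reticulum, lay below 0, from −0.44 to −0.10. Of the 17 probes of the list, 4 were lower (9.69% of all coding probes) and 0 higher without overlap (9.44%). The lipid-binding genes Osbpl6, Plekha3 and Sestd1 stayed between −0.13 and 0.12 at 8 linear probes, with 0 outside the overlap. In these last 3 lists 0 probes passed the limma adjusted threshold, and 3, 1 and 0 had an unadjusted p under 0.05, against 11.1% of all coding probes.

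Over genes, the probes gave no common direction. Of 32 genes with at least 2 tested linear probes, 5 had all probes above 0, 7 had all below 0 and 20 had both signs. Agps was the gene with every tested probe higher without overlap, and Neurod1 and Wipf1 were the 2 with every tested probe lower. The 82 probes that were not tested included 45 circRNAs, 37 of them in Ttn, and 65 of the 82 stood well above background on no array. Of the 288 that were tested, 277 had passed in both genotypes, 4 through the knockout only and 7 through wild type only, Cyct probe B among the 7.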

How the data were processed

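Total RNA of 6 samples was measured on 6 arrays, 1 per sample. The deposited scanner files hold intensity values on a linear scale, written by Feature Extraction 12.0.3.1 with probe positions on build mm9, per the file headers. Version 10.7 and limma stand in the submitters' processing notes. The authors' deposited value table is on a log2 scale by its correlation of at least 0.999864 with log2 of each array's processed signal, and it served as an alternative only.

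Log2 of the processed signal minus its array's 75th percentile entered lmFit and eBayes of limma 3.58.1 (R 4.3.3) as knockout minus wild type, two-sided, with Benjamini-Hochberg adjustment over 105922 probes. Control spots were dropped and outlier-flagged spots set to missing. Testing required a signal well above background on all 3 arrays of a group. No spot was saturated (0 on each array), and 3 arrays per group limit the precision. Errors are limma's SE or the SD over 3 arrays. The code was tested on simulated data. A "non-overlapping" probe has its lowest value in one group above the highest of the other. Probe letters put Agilent's probes before custom ones, each by distance.

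Distances were taken within a build: mm9 for linear probes, and GRCm38 for Ttc30a2 and for circRNA names, whose build the sources used here do not state. Of 4125 chromosome 2 circRNAs, 98.3% fell within coding genes of GRCm38 and, once shifted by 1 Mb, 42.3%, and 225 of the 226 members lay in exactly 1 gene, their host. Symbols come from a reference table of GRCm38.

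Members, role lists and markers were chosen with earlier results of these data known, and 1 marker gene is not reported here. Named are every probe past the threshold, Rbm45, Ttc30a2, Zfp385b and Pde11a, the 10 coding genes and 6 circRNAs with the largest non-overlapping difference, the 6 nearest tested genes a side and up to 3 genes per role list. A few further circRNAs, linear genes and the 3 genes set apart from the totals were chosen after their values were seen. Alternatives were quantile normalization, median scaling, normexp background correction (offset 50), the authors' table, no filter or a stricter one, an intensity trend, slide as a block, slide 1 alone, the replicate number as a block, and each array left out.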

Additional observations from a re-analysis of the deposited data

How the results depend on the processing

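The call of Rbm45 probe A held under 14 of 16 alternatives. Its limma adjusted p was 0.149 within slide 1 alone and 0.13 with the replicate number as a block, and its log2 difference ran from 1.87 to 3.27 over all of them. The number of flank probes past the threshold was 1 in most settings, 0 with the replicate block, and 1 to 44 when an array was left out. The unadjusted count of 68 became 29 under a slide block, 25 within slide 1 alone (8.68%, against 5.55% of all tested probes) and 37 to 91 when an array was left out, where the 91 without knockout 1 are 31.6% of the flank against 31.7% of all tested probes. The non-overlapping count of 90 was 176 within slide 1 alone, where the knockout is 1 array (61.1%, against 51.2% of all tested probes), and 107 to 158 when an array was left out, where a group holds fewer arrays (37.2% to 54.9%, against 25.8% to 51.9%). It has no value of its own under a block or an intensity trend. Leaving out knockout 1, which leaves the slide 2 arrays against wild type, gave 11 of the other named differences a limma adjusted p under 0.05, where 12.8% of all tested probes had one. Cyct probe B is among the 11 and is the second probe without wild type 1, but it was tested through wild type alone and is no call.

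The replicate numbers gave no sign of pairing: the deviations of same-numbered arrays correlated at −0.013, −0.050 and 0.038 over the tested probes. Differently numbered arrays correlated at −0.028 to 0.047. With 3 arrays per group, such values cannot settle if samples were paired. With the number as a block, limma's unadjusted count of 68 became 52 (18.1% of the flank, against 13.3% of all tested probes). There were then 0 flank probes past the adjusted threshold and 2 on the whole array.

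Of 350 recomputed differences of 22 named probes, 326 kept sign and side of the threshold and 10 changed sign, all in Zfp385b: probe B at 0.15 with slide as a block and within slide 1, probe C at 0.0423 with median scaling, 0.0039 with normexp and −0.0564 to 0.081 when an array was left out (above 0 without knockout 3 and without wild type 1), and probe D at 0.0055 with normexp, 0.11 with slide as a block and within slide 1, and −0.158 to 0.0714 when an array was left out (above 0 without knockout 2). The cause was not tested.

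The medians by distance were recomputed as alternatives chosen after seeing the data. Within 1 Mb on the higher-coordinate side the median of 0.13 became 0.18 with quantile normalization (0.1839), median scaling (0.1796), the authors' table (0.181) and no filter (0.1766), and 0.109 to 0.152 when an array was left out. Between 1 and 3 Mb there, −0.02 became 0.0287 with median scaling, 0.0098 with normexp, −0.0035 with the authors' table and 0.0221 with slide as a block or within slide 1, and ran from −0.0547 to 0.0515 when an array was left out. Beyond 3 Mb, 0.03 became 0.0846 with median scaling and ran from −0.0036 to 0.0496. On the lower-coordinate side, between 1 and 3 Mb, 0.07 became 0.12 with median scaling and 0.0058 with slide as a block or within slide 1, and ran from 0.03 to 0.11. The median of all tested probes moved as well. From 0.0278 it became 0.0793 with median scaling, 0.0468 with quantile normalization and 0.0465 with the authors' table. It was 0.0027 with no filter and 0.0037 with slide as a block or within slide 1. What moved the medians by distance was not tested.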
